A study of Drosophila melanogaster with 15 samples.

Results

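Trithorax, Polycomb and chromatin remodelling genes were followed through 6 lists of peaks and binding sites from the fly mushroom body, the brain structure that stores olfactory memory. The 50 genes were chosen by name, 27 of them trithorax and remodelling genes and 23 of them Polycomb and methyltransferase genes, and every row that carried one of these names as its gene symbol was taken. Of the 50, 45 were named in at least 1 list (23 of 27 trithorax and remodelling genes, 22 of 23 Polycomb and methyltransferase genes), among 7766 genes named in all lists together. Bap60, Bap111, Bap170 and Ino80, which encode remodeller subunits, and esc, a core Polycomb subunit, were absent from every list under these names.

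The flies were of the CS10 strain, and all groups carried a FLAG-tagged KASH domain, a tag of the nuclear membrane used to pull down mushroom body nuclei from pooled heads. The tag was driven by MBp-LexA, which is strong in the α/β and γ lobes and weak in the α′/β′ lobe, so the nuclei do not sample all mushroom body neurons evenly. Acetylation of histone H3 at lysine 9 (H3K9Ac) and of histone H4 at lysine 16 (H4K16Ac) was profiled by chromatin immunoprecipitation and sequencing, with 3 libraries of naive flies and 3 of flies 1 day after spaced training (odour and shock paired with rests) for each mark. The transcription factor CREB and its coactivator CRTC had 1 library each, both after spaced training, and the single input library was naive, 15 samples in all. In such pooled nuclei, a large change in few cells and a small change in many cannot be told apart.

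Trithorax group proteins keep developmental genes active and Polycomb group proteins keep them silent. They act on the same chromatin through histone methylation, nucleosome remodelling and, for a few members, binding to specific DNA. Polycomb repressive complex 1 (PRC1) binds and modifies silenced chromatin, and Polycomb repressive complex 2 (PRC2) methylates lysine 27 of histone H3. In neurons the same proteins maintain cell identity and adjust how strongly activity-dependent genes respond. Acetylation of H3K9 and H4K16 accompanies active promoters and open chromatin.

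The lists hold 4803 CREB sites, 3002 CRTC sites, 1889 regions with increased H3K9Ac, 1428 regions with increased H4K16Ac, 23378 H3K9Ac peaks and 24152 H4K16Ac peaks. The totals of CRTC sites and of increased regions differ from those the paper reports. The lists used here give 1 value per site or region and none per library, so values by sample, library depth and the spread between replicates were not analysed here, and no difference below was tested. Of 10 mushroom body markers, 5 had an H3K9Ac peak (ey, toy, dac, Fas2 and mub) and 7 had an H4K16Ac peak. For the 8 named in any list these were 62.5% and 87.5%, against 65.8% and 76.1% of all genes named, so they say little about tissue. Among 5 general neuron markers, elav, Syt1 and brp had an H3K9Ac peak, and elav and Syt1 an H4K16Ac peak. Of 5 fat body and muscle markers none was named in any list. Of 5 glial markers, Gs2 and Eaat1 had H3K9Ac peaks and moody and Gs2 had H4K16Ac peaks, and the defining glial gene repo had neither. For the photoreceptor markers this was 1 of 4 for H3K9Ac (norpA) and 2 of 4 for H4K16Ac, ninaE among them. What part other cells have in the results was not tested.

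CREB sites were assigned to 17 of the 45 genes named (37.8%, against 32.7% of all 7766 genes), CRTC sites to 16 (35.6%, against 21.5%) and CREB/CRTC sites to 15 (33.3%, against 18.0%). A CREB/CRTC site here means a CRTC site with a CREB site no more than 200 bp away. The trithorax side held 8 of the 15 (trx, ash2, osa, kis, Trl, lola, psq and Mi-2) and the Polycomb side 7 (Pc, ph-p, ph-d, Psc, Su(z)2, Hmt4-20 and gpp). As shares of the genes named these were 34.8% and 31.8%, so the sides stood close together. Beyond the 15, mor and Set2 had a CREB site only and Su(z)12 a CRTC site only. The study picked trx and Hmt4-20 as candidate genes from these or related samples, so their sites are not independent evidence, and without them 13 genes had a CREB/CRTC site.

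**Figure D1:**
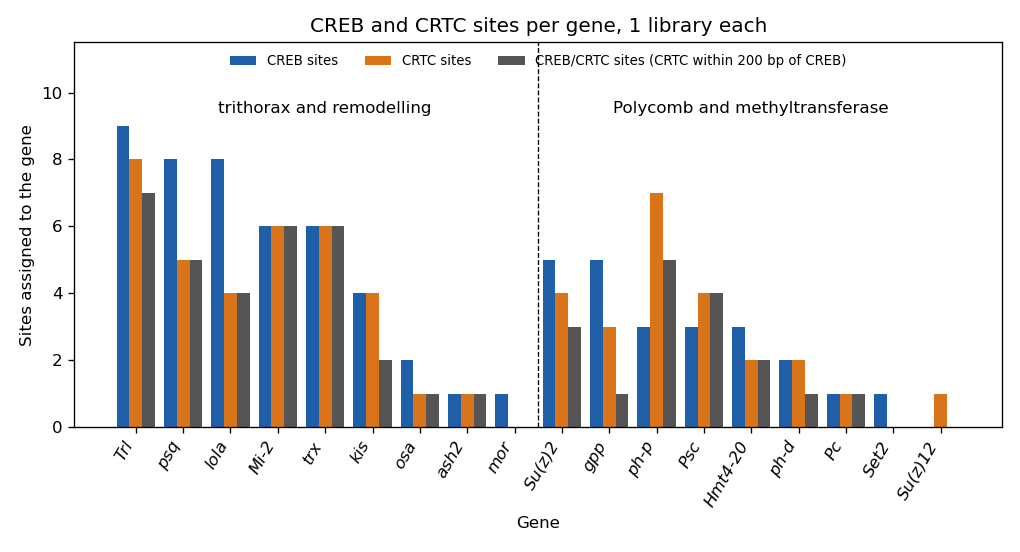
Number of CREB sites, CRTC sites and CREB/CRTC sites (no more than 200 bp apart) assigned to each of the 18 genes that had any, with trithorax and remodelling genes left of the dashed line and Polycomb and methyltransferase genes right of it. Trl had 9 CREB and 8 CRTC sites, while ash2 and Pc had 1 of each.

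Where sites occurred, there were often several. The 17 genes with CREB carried 68 CREB sites, with a median of 3 per gene against 1 over all genes with a site, and the 16 genes with CRTC carried 59, with a median of 4 against 1. Trl, lola, psq, Mi-2 and trx together held 37 of the 68 CREB sites, or 54.4%. Neighbouring sites are not separate observations, since many of them share 1 broader enriched region and with it 1 enrichment factor, the ratio of ChIP to input reads. The 9 CREB sites at Trl, for example, carried 5 different enrichment factors.

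The GAGA-type and BTB-domain factors, which bind DNA directly, all carried CREB/CRTC sites, 3 genes of 3, against 18.0% of all genes named. Of the 3, lola and psq are neighbours, so they are not separate places in the genome. Trl encodes GAGA factor, which binds GA-rich promoters and recruits remodellers, and its sites lay on chromosome 3L between 14748319 and 14753242 (dm3). Their enrichment factors ran from 6.88 to 20.8 for CREB and from 7.26 to 14.7 for CRTC, and 7 of the 8 CRTC sites were paired with CREB. The highest were at the same place, a CREB site from 14749591 to 14749685 that overlapped a CRTC site, both downstream of the transcription start site (TSS), by 1376 bp and 1375 bp. Here and below, a distance is to the nearest TSS listed for the gene, and several of these genes have more than 1. The assignment of these sites rests on overlapping genes. Acetylation peaks within 200 bp of 7 of the 9 CREB sites and 7 of the 8 CRTC sites carried only the name CG42507 in the peak tables.

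psq encodes pipsqueak, another GAGA-binding BTB protein with ties to Polycomb targeting, and lola encodes a large family of BTB zinc-finger isoforms that specify neurons. At psq the 8 CREB sites had enrichment factors of 6.57 to 12.2 and the 5 CRTC sites 4.82 to 8.97, and all 5 CRTC sites were near CREB. At lola the 8 CREB sites spanned a wider range, 2.56 to 9.92, and the 4 CRTC sites 4.33 to 5.97, again all near CREB. The genes are neighbours on 2R with no annotated gene between them, and together their 25 sites spanned 35349 bp.

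Among the methyltransferase complexes of the trithorax side, trx and ash2 had sites and ash1 and trr, also methyltransferase genes, had none. trx encodes the H3K4 methyltransferase that names the group. Its 6 CREB sites (enrichment factors 7.90 to 12.9) each overlapped 1 of its 6 CRTC sites (3.82 to 7.54), on 3R between 10104515 and 10112280. The CREB sites ran from 373 bp to 8059 bp downstream of the TSS, and the highest CREB value was at the site farthest in. At ash2, a shared subunit of H3K4 methyltransferase complexes, a single CREB site (10.2) overlapped a single CRTC site (7.72), 52 bp and 44 bp upstream of the TSS.

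The Brahma (SWI/SNF) remodeller was represented by osa, the subunit that defines the BAP form of the complex, and by mor, a scaffold subunit. At osa a CREB site with enrichment factor 17.7 overlapped a CRTC site of 10.2 on 3R from 13542939, 1054 bp inside the gene, and a weaker CREB site of 2.90 held the TSS itself without CRTC. At mor the single CREB site was weak (4.00) and lay 55 bp upstream of the TSS. The ATPase gene brm and the subunit genes Snr1, Bap55 and polybromo had no site.

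Of the other remodellers, Mi-2 and kis had sites and Iswi, Acf1, Nurf-38, E(bx), Chd1 and Chd3 were not. Mi-2 encodes the ATPase of the NuRD complex. Its 6 CRTC sites (4.93 to 7.42) all lay near CREB sites, 6612 bp to 8716 bp upstream of a TSS of the gene, beside 5 of its 6 CREB sites (10.4 to 12.2). The peak tables gave the acetylation peaks within 200 bp of 4 of these CRTC sites to Su(Tpl), a gene next to Mi-2 in the reference, alone. The sixth CREB site (5.73) held another Mi-2 TSS and had no CRTC site near it.

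kis encodes kismet, a CHD remodeller that counters H3K27 methylation. Its 4 CREB sites had enrichment factors of 4.54 to 10.04 and its 4 CRTC sites 3.56 to 7.35, and 2 CREB/CRTC pairs were found. Of these, 1 was 178 bp to 270 bp upstream of a TSS and the other was 1397 bp to 1493 bp downstream of another TSS of the gene. The demethylase genes lid and Utx had no site.

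On the Polycomb side, 5 of the 7 PRC1 genes named carried CREB/CRTC sites (71.4%, against 18.0% of all genes named). None of the 4 PRC2 genes did, which at a share of 18.0% says little. No test of this contrast was made, and the 5 genes lie at only 3 places in the genome. ph-p and ph-d encode the polyhomeotic proteins, which polymerise to compact silenced chromatin, and they are tandem copies next to each other on X. Reads of low mapping quality were removed by the authors, and how well the remaining reads tell the copies apart was not examined. Which copy a site belongs to is therefore uncertain. ph-p was given 3 CREB sites (5.84 to 9.02) and 7 CRTC sites (4.35 to 4.95), and ph-d 2 CREB sites (4.43 and 4.96) and 2 CRTC sites (3.80 each).

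Psc and Su(z)2 encode related RING-finger PRC1 subunits on 2R, with 1 gene between them. All 4 CRTC sites at Psc (2.42 to 6.13) lay near its 3 CREB sites (4.52 to 8.33), at the promoter and at 3664 bp to 4925 bp upstream of it. At Su(z)2 the 4 CREB sites around the promoter were weak, 3.32 to 3.81. The fifth, from 8903189 to 8903267, lay 18561 bp downstream of the TSS and had the highest enrichment factor of any site in these genes, 24.7 for CREB and 15.3 for the CRTC site that overlapped it. The nearest H3K9Ac window was 18769 bp from it, and the nearest H4K16Ac window 244 bp.

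Pc, which reads methylated H3K27 for PRC1, had 1 weak pair, CREB 4.14 and CRTC 2.91, with the CRTC site on the TSS. Sce, the ubiquitin ligase of PRC1, and Scm, a linker of PRC1, had none. In PRC2, Su(z)12 had a CRTC site of 2.25, the lowest enrichment factor in these genes, and the catalytic gene E(z) and the accessory genes Pcl and Jarid2 had no site. The DNA-binding Polycomb factors pho and phol and the deubiquitinase subunit Asx had none.

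Of the histone methyltransferases, Hmt4-20, which makes the H4K20 methylation of closed chromatin, carried 3 CREB sites (4.40 to 4.53) and 2 CRTC sites (5.96 and 3.41), the latter both overlapping CREB. gpp, the fly Dot1 that methylates H3K79, carried 5 CREB sites (3.68 to 7.12) and 3 CRTC sites (4.20 to 7.38), of which 1 CRTC site was near CREB. Its other CREB sites reached 13556 bp into the gene. Set2, the H3K36 methyltransferase, had 1 CREB site (7.77) at 2454 bp, and the H3K9 methyltransferase genes Su(var)3-9, egg and G9a had none. Nor did Su(var)205, which encodes the heterochromatin protein HP1, or the H3K4 demethylase gene Su(var)3-3.

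**Figure D2:**
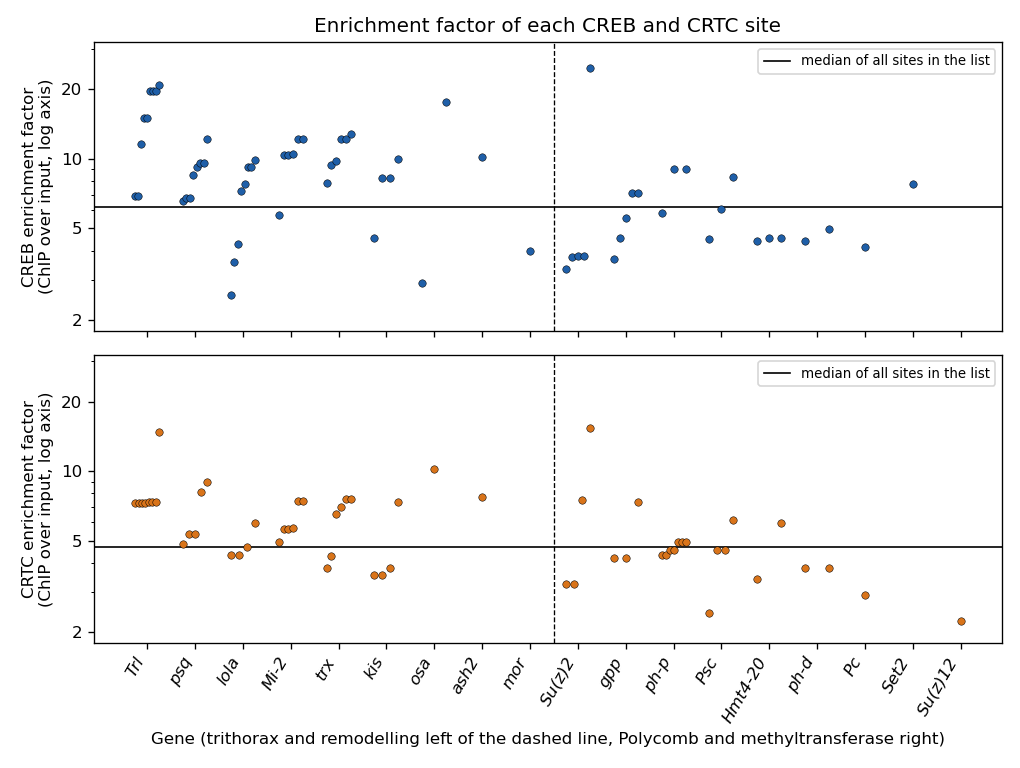
Enrichment factor (ChIP over input reads, log axis) of every CREB site (top) and CRTC site (bottom) by gene, each point 1 site and the line the median of all sites in that list (6.17 for CREB, 4.67 for CRTC). Points of equal height in a gene mostly share 1 enriched region, and the Su(z)2 and Trl sites at 24.7 and 20.8 are the highest CREB values.

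Over all sites, the enrichment factors of these genes were higher at the median than those of the lists. The median was 8.08 at the 68 CREB sites against 6.17 over the list, and 5.33 at the 59 CRTC sites against 4.67. The medians of the sides lay apart, though this was not tested. Trithorax and remodelling genes had medians of 9.63 for CREB and 6.97 for CRTC, and Polycomb and methyltransferase genes 4.53 and 4.45, below the list medians. Counted by gene, with the highest site of each, both sides lay above the list. For CREB the medians were 12.2 on the trithorax side and 7.45 on the Polycomb side against 6.27 over all genes with a site, and for CRTC 7.63 and 5.46 against 4.78. The highest of several values tends to rise with their number, so this comparison is not independent of the number of sites per gene. In the same order, that number had medians of 6 and 3 for CREB against 1, and of 4.5 and 2.5 for CRTC against 1. With an enrichment factor of at least 5 required for both factors, 11 of the 45 genes had a CREB/CRTC site (24.4%, against 8.81% of all genes named).

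Fewer of the sites were at promoters than in the lists as a whole. Within 500 bp of a TSS lay 23 of the 68 CREB sites (33.8%, against 56.7% of all CREB sites) and 18 of the 59 CRTC sites (30.5%, against 54.4%). The share was lower on the trithorax side, 26.7% for CREB and 17.1% for CRTC, than on the Polycomb side, 47.8% and 50.0%. This contrast was not tested and rests on few genes, since Trl, lola, psq, Mi-2 and trx held 37 of the 45 trithorax-side CREB sites. All 10 CREB and 11 CRTC sites whose nearby acetylation peaks carried only other gene names were at Trl and Mi-2. A CRTC site was within 200 bp for 66.2% of the CREB sites, against 52.3% in the list, and a CREB site was as near for 83.1% of the CRTC sites, against 79.6%. Across the 49 CRTC sites near CREB, the enrichment factors of the paired sites were correlated (Spearman's rho 0.702, against 0.722 over all 2390 such sites), though both share the input library and neighbouring sites share enriched regions.

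**Figure D3:**
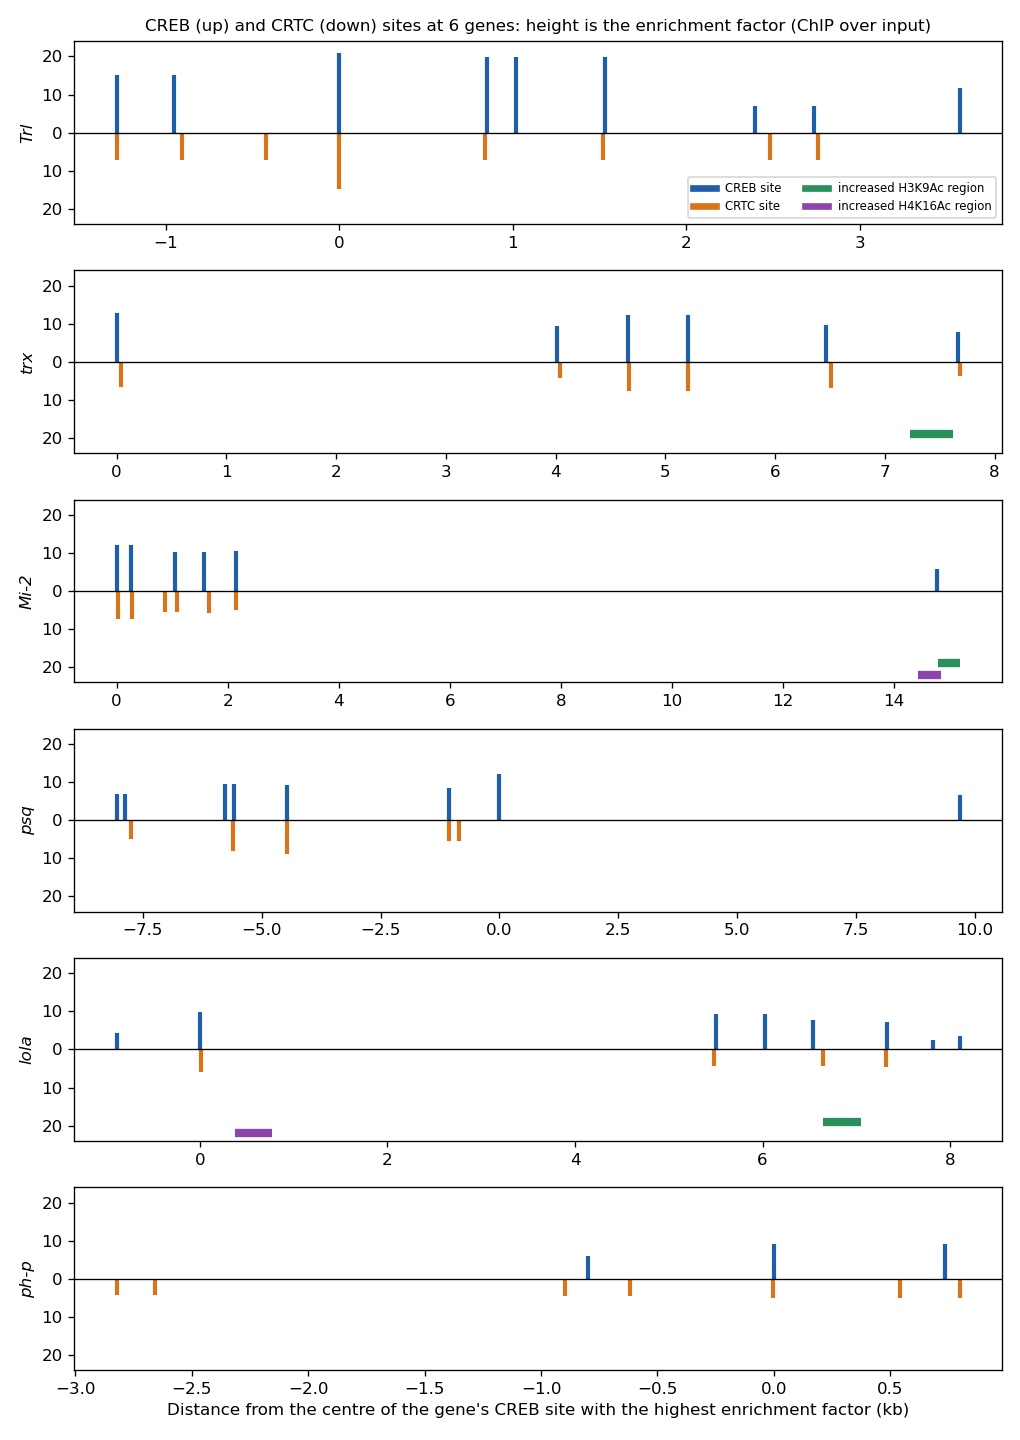
Position of CREB sites (upward) and CRTC sites (downward) at Trl, trx, Mi-2, psq, lola and ph-p, in kb from the centre of each gene's highest CREB site, with the enrichment factor as height and increased H3K9Ac and H4K16Ac regions as bars below. At Mi-2 the 5 high CREB sites stand apart from the sixth site, at another TSS, where both increased regions lie.

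The next question was which of these genes gained acetylation after spaced training. The list of increased H3K9Ac named 15 of these 45 genes (33.3%, against 22.7% of all genes named) and that of increased H4K16Ac named 8 (17.8%, against 17.0%), 21 in all (46.7%, against 34.0%). The trithorax side had 10 and 5 of these, and the Polycomb side 5 and 3. Without the study's candidate genes trx and Hmt4-20, 14 and 7 genes were listed. Only lola and Mi-2 were listed for both marks (4.44%, against 5.68%). Every region in these lists has a mean ratio of at least 1.2, a listed p below 0.05 without adjustment and a TSS within 500 bp, so the direction and the smallest size follow from how the lists were made. Decreased regions are not analysed here. With a listed p below 0.01, 9 and 6 of the 45 genes were listed (20% and 13.3%), against 11.6% and 5.27% of all genes named.

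**Figure D4:**
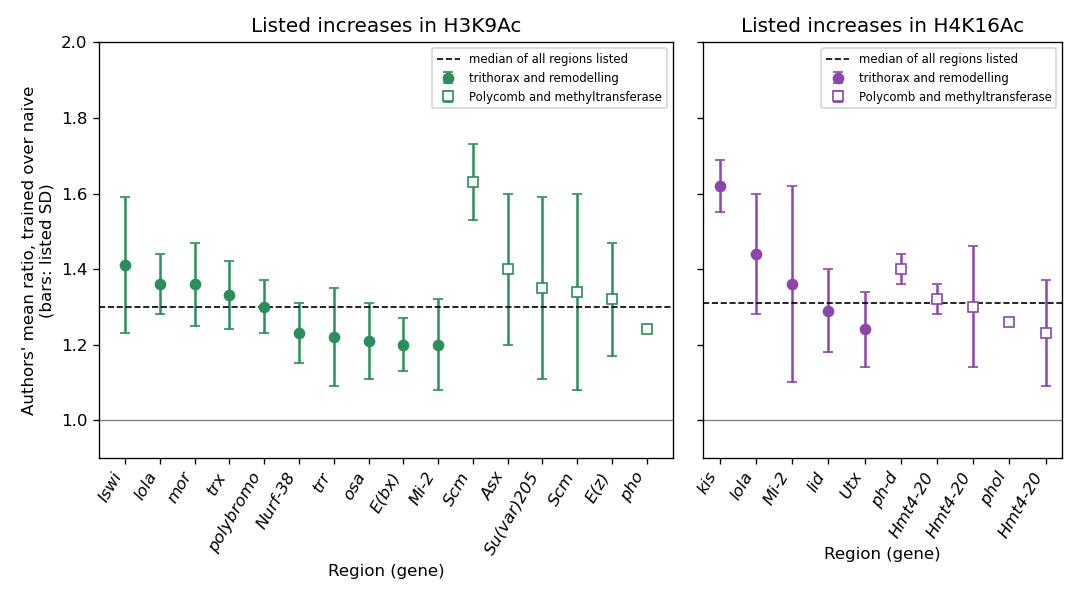
The authors' mean ratio of spaced-trained to naive flies with its listed SD, for the 16 H3K9Ac regions (left) and 10 H4K16Ac regions (right) at these genes, filled circles for trithorax and remodelling and open squares for Polycomb and methyltransferase genes, and the dashed line the median of the whole list. The H3K9Ac region of Scm at 1.63 and the H4K16Ac region of kis at 1.62 are highest, and the bars of pho and phol (0.01) are smaller than their symbols.

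The increases were modest, as in the lists as a whole. The authors' mean ratio, trained over naive, had a median of 1.33 over the 16 H3K9Ac regions against 1.30 over all 1889, and of 1.31 over the 10 H4K16Ac regions against 1.31 over all 1428. What the listed SD was taken over is not stated, and it is given as listed.

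For H3K9Ac, the region at trx (3R, 10111766 to 10112166, in the 5′ untranslated region) had a listed mean ratio of 1.33 ± 0.09. It overlapped the trx CREB site nearest to the TSS and lay 2 bp from the CRTC site there. This region and that of lola were the only H3K9Ac regions of these genes within 200 bp of a CREB/CRTC site, 2 of 16 against 10.5% of all listed regions.

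Of the 6 Brahma subunit genes named, 3 were listed (50.0%, against 22.7% of all genes named). These were osa, mor and polybromo, at 1.21 ± 0.10, 1.36 ± 0.11 and 1.30 ± 0.07, while brm, Snr1 and Bap55 were in neither increased list. The osa region held the weak CREB site at the TSS, and its CREB/CRTC pair was 1004 bp away. The remodeller genes Iswi (1.41 ± 0.18), Nurf-38 (1.23 ± 0.08) and E(bx) (1.2 ± 0.07), which encode the ATPase, the pyrophosphatase and the largest subunit of the nucleosome remodelling factor NURF, were listed as well. Caf1, the fourth NURF subunit gene and one of the other chromatin genes set beside these below, had peaks of both marks and was in neither increased list. Their regions were 17208 bp or more from any CREB or CRTC site.

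Mi-2 was listed at 1.2 ± 0.12, in a region that the peak table gives to the neighbouring CG7757, and trr, an H3K4 methyltransferase gene, at 1.22 ± 0.13 in a region that holds its TSS and also overlaps peaks named mRpL16. The lola region (1.36 ± 0.08) was called in only 1 of the 3 runs of rows that make up the peak table, with a peak score of 1.24.

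On the Polycomb side, Scm had the highest ratio of these genes, 1.63 ± 0.10, higher than 95.9% of the listed regions. That region was called in 1 run only, with a peak score of 0.745, and the region next to it, at 1.34 ± 0.26, was called in all 3. The others were Asx (1.40 ± 0.20), the HP1 gene Su(var)205 (1.35 ± 0.24), E(z) (1.32 ± 0.15) and pho (1.24 ± 0.01). The peak table gives the E(z) region to CG8009, whose TSS is 87 bp from the peak centre. None of these 6 regions was within 200 bp of a CREB/CRTC site.

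For H4K16Ac, kis had the highest ratio at 1.62 ± 0.07 (2L, 221360 to 221760), higher than 96.5% of the listed regions and called in all 3 runs. It lay 380 bp from the nearest CREB/CRTC site. lola followed at 1.44 ± 0.16, in a region called in 1 run and apart from its H3K9Ac region. Mi-2 was listed at 1.36 ± 0.26, and here the regions of both marks overlapped each other at the TSS that holds the sixth CREB site.

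The H3K4 demethylase gene lid (1.29 ± 0.11) and the H3K27 demethylase gene Utx (1.24 ± 0.10) were listed for H4K16Ac, with the nearest CREB/CRTC sites 16569 bp and 178756 bp away. On the Polycomb side ph-d (1.40 ± 0.04) was called in 1 run, and phol, a DNA-binding Polycomb factor, was at 1.26 ± 0.01. Hmt4-20 was the only one of these genes with 3 listed H4K16Ac regions.

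The Hmt4-20 regions lay side by side on X from 548206 to 549658, with ratios of 1.30 ± 0.16, 1.32 ± 0.04 and 1.23 ± 0.14. The middle region overlapped a CREB/CRTC site and the last lay 26 bp from one, and they were the only H4K16Ac regions of these genes within 200 bp of such a site, 2 of 10 against 15.5% of all listed regions. The peak tables name this gene by its older symbol Suv4-20, with 12 peaks of each mark and a highest score of 6.80 for H3K9Ac and 5.00 for H4K16Ac.

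Set against each other, binding and acetylation gave different pictures for the 2 marks. Of the 15 genes with a CREB/CRTC site, 4 were listed for H3K9Ac (26.7%) and 5 for H4K16Ac (33.3%). Of the 30 without one, 11 (36.7%) and 3 (10%) were listed. Over all genes named the shares with and without a site were 24.9% and 22.3% for H3K9Ac, and 22.8% and 15.7% for H4K16Ac. Both a CREB/CRTC site and an increase of either mark were found at 7 genes, trx, osa, kis, lola, Mi-2, ph-d and Hmt4-20 (15.6%, against 6.81%), 5 on the trithorax side and 2 on the Polycomb side. The study drew trx and Hmt4-20 from genes with both features in these or related samples, so these 2 are not independent evidence here. They also count among the genes with a site listed for H3K9Ac (trx) and for H4K16Ac (Hmt4-20). All of these numbers are small and were not tested.

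The remaining 8 genes with CREB/CRTC sites, ash2, Trl, psq, Pc, ph-p, Psc, Su(z)2 and gpp, were listed for neither mark under their own names. Whether a region at the Trl sites is listed under the overlapping CG42507 was not examined. Over all genes named, 529 of the 1396 with a CREB/CRTC site were listed for either mark, beside 7 of 15 here. Conversely 13 genes were listed with neither a CREB nor a CRTC site, among them the NURF genes, E(z), Scm, pho, phol and Asx. The share of all genes named that this holds for was not computed, so the count has nothing to be set against. A different measure is the lack of a CREB/CRTC site, which holds for most listed genes in the lists as a whole. Over all genes named this was 1418 of 1765 for H3K9Ac and 1001 of 1319 for H4K16Ac, and here 11 of 15 and 3 of 8.

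The peak tables do not separate naive from trained flies, and in them most of these genes carried both marks. An H3K9Ac peak was named for 35 of the 45 (77.8%, against 65.8% of all genes named) and an H4K16Ac peak for 41 (91.1%, against 76.1%). Both were named for 32, and the share of all genes with both was not computed. Since a gene enters the 7766 by being named in any list, and most are named for a peak, these shares describe the lists. Without overlaps there were 78 H3K9Ac windows of 400 bp, of which 16 were increased (20.5%, against 24.2% of all windows), and 96 H4K16Ac windows, of which 10 were increased (10.4%, against 15.3%). By window the shares were thus below those of the tables as a whole. In at least 2 runs, 59 and 68 of these windows were called (75.6% and 70.8%, against 77.4% and 69.6% of all windows).

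Peak scores, the authors' measure of how strongly a peak stands out, were ordinary for most of these genes. The highest score per gene had a median of 2.69 for H3K9Ac against 2.78 over all genes with a peak, and 2.37 for H4K16Ac against 2.47. psq stood highest in both marks, at 27.3 and 11.0. osa (11.0) and E(bx) (10.1) followed for H3K9Ac, and Psc (4.92) and Su(z)12 (4.80) followed psq for H4K16Ac among peaks under current symbols, since the older symbols of Hmt4-20 (5.00) and Bap111 (5.42, a single peak) were higher. The lowest H3K9Ac values were Su(z)2 at 0.692 and Pcl at 0.858. Psc had 10 H4K16Ac peaks and no H3K9Ac peak, and pho had 7 H3K9Ac peaks, with a highest score of 6.78, and no H4K16Ac peak.

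A group of 14 genes had acetylation peaks and nothing else, neither a site nor an increased region. The share of all genes named with peaks alone was not computed, so this count has nothing to be set against. On the trithorax side they were ash1, the ATPase gene brm, Snr1, Bap55, Acf1 (a partner of the Iswi ATPase), Chd1 and Chd3. Snr1, a core Brahma subunit, had the highest scores among them, 4.32 for H3K9Ac and 3.40 for H4K16Ac. brm and ash1 had nearly the same scores as each other, 2.66 and 2.30 for H3K9Ac and 2.03 each for H4K16Ac, while Acf1 had a single H3K9Ac peak at 1.55 and Chd3 only H4K16Ac peaks, up to 1.23.

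On the Polycomb side the genes with peaks alone were Sce, Pcl, Jarid2, Su(var)3-9, egg, G9a and Su(var)3-3. Jarid2, an accessory PRC2 subunit, was called in all 3 runs of both tables, with highest scores of 3.17 and 2.19. G9a and Su(var)3-3 had 1 H4K16Ac peak each, at 2.99 and 1.92, and Sce and Su(var)3-9 had 2 each, up to 1.497 and 1.61. Of these 4 genes none had an H3K9Ac peak, so their place in the lists rests on very few calls.

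**Figure D5:**
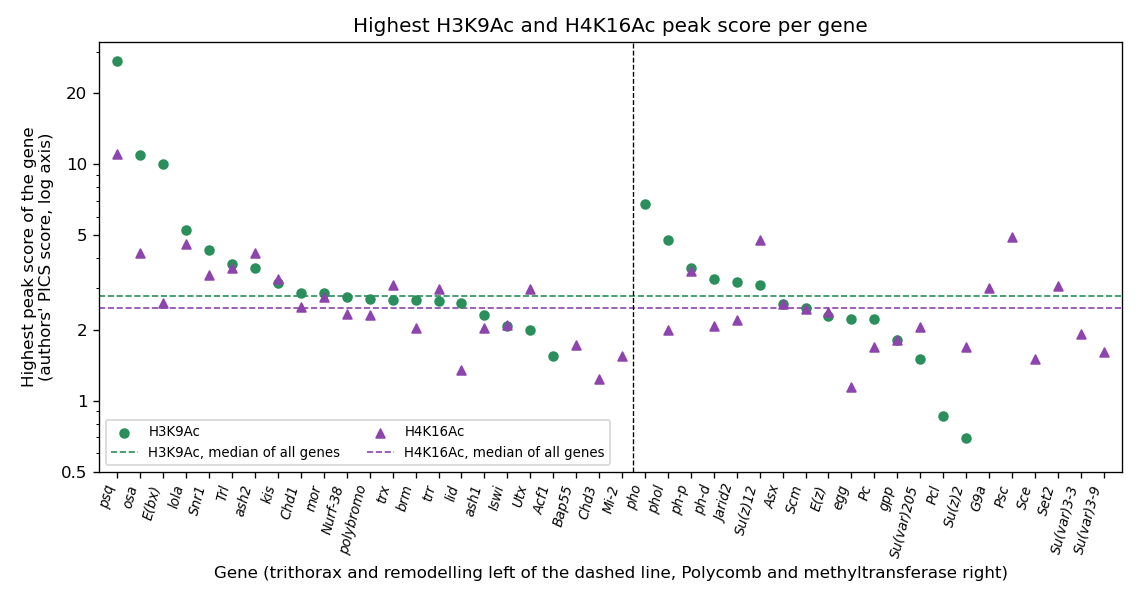
Highest peak score per gene (the authors' PICS score, log axis) for H3K9Ac (circles) and H4K16Ac (triangles), with dashed lines at the medians over all genes with a peak (2.78 and 2.47), for every gene with a peak under its own name. psq stands apart at 27.3 and 11.0, and most genes lie within a few units of the medians.

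The peaks were placed differently on the sides. On the trithorax side 55.8% of the H3K9Ac peaks and 56.2% of the H4K16Ac peaks were annotated as intron only, against 33.8% and 30.8% of all peaks, and on the Polycomb side 15.3% and 13.2% were. There, 49.2% of the H3K9Ac peaks touched a 5′ untranslated region, against 27.6% of all peaks. Of the intron-only peaks on the trithorax side, osa, lola, trx and kis held 71 of 91 for H3K9Ac (78.0%) and 80 of 100 for H4K16Ac. osa had 31 peaks of each mark in all, lola 25 and 23, trx 24 and 18, and kis 10 and 23. psq, with 15 and 21 peaks, had none annotated as intron only, and no Polycomb or methyltransferase gene had more than 12.

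As a comparison, 36 other chromatin genes were listed from the same processes, of which 27 were named in a list. CREB/CRTC sites were found at 7 of these (25.9%, against 18.0% of all genes named) and an increase of either mark at 18 (66.7%, against 34.0%), with tna, a trithorax-group regulator, the only one listed for both marks. The 45 genes had 33.3% and 46.7% in the same order.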

How the data were processed

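The samples were grouped by their labels. By the methods of the study, reads were mapped to dm3 and filtered on mapping quality by the authors, who then called peaks with PICS and ERD over input. The methods describe CREB and CRTC sites as calls shared by at least 2 of 3 replicates, whereas the labels give 1 library each, so the site lists have no replicate check here. The paper names another series for its CREB and CRTC data and reports other totals of CRTC sites and increased regions. The lists used here are thus not its published calls. It also mentions a first pilot without replicates, and whether these lists came from it is not stated. The deposited site lists give the authors' PICS false discovery rate and the ERD enrichment factor, a linear ratio of ChIP to input that was blank for 2 CREB sites. The deposited peak tables give the authors' PICS score, in 3 runs of rows without sample names. The deposited lists of increased regions give a mean ratio, its SD and an unadjusted p-value of the authors' own comparison. The mean and SD are printed as listed, and the p served only as a filter.

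Genes were matched by symbol, 48 directly to RefSeq (Release 6 plus ISO1 MT) and 2 by synonym, and that table was used only for names and gene order. Older symbols gave peaks of Hmt4-20 (Suv4-20) and 1 H4K16Ac peak of Bap111 (dalao) and were not counted in the main values. Peaks were set to 400 bp windows around their centres and overlapping windows were counted once, increased regions first. Distances to a TSS are those of the site and region lists, and negative values there are upstream. The percentage after "against" is the share of all 7766 genes named in any list, or of all sites, peaks or windows. Genes described in full were those with both a CREB/CRTC site and an increased region, the 5 with most CREB/CRTC sites, and those with the highest value of a list, with the others given more briefly. Interval functions were tested on simulated data.

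No counts per library were used here, so the depth behind each value is unknown from the lists, and no test or leave-one-out fit was run. A planned motif search was not run, since no genome sequence was used here. The genes, their grouping, the comparison list and the marker lists were chosen with earlier results of these data known. Scripts used Python 3.11.15, pandas 2.3.3, numpy 2.4.6 and matplotlib 3.10.9.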

Additional observations from a re-analysis of the deposited data

How the results depend on the processing

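The counts of genes were recomputed under 21 alternatives over 7 results, 4 of them chosen after seeing the data. 20 stayed within 1.5 times the main count. For some of them this was fixed in advance, since leaving out trx and Hmt4-20, or only counting older symbols too, changes too few genes to pass that limit. The exception was increased H3K9Ac with a listed p below 0.01, which left 9 of 15 genes. CREB/CRTC sites were found at 12 genes with direct overlap of the sites, at 15 with 500 bp between them and at 11 with an enrichment factor of at least 5. Taking the gene name of the peak table left 13 genes with increased H3K9Ac, and regions called in at least 2 runs left 14 for H3K9Ac and 6 for H4K16Ac. No paired analysis was possible because the lists give no values per library, so the block by replicate number and leaving out a replicate could not be fitted. Library depth is not in the lists and was not used here.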

Other observations

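Each list of increased regions is made of 2 sorted parts. In the first part, 408 of 409 H3K9Ac regions and 390 of 392 H4K16Ac regions were at genes with a CREB/CRTC site, and in the second part none was. Of the regions at trithorax, Polycomb and remodelling genes, 4 H3K9Ac and 7 H4K16Ac regions stood in the first part and 12 and 3 in the second.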
